A study of Mus musculus with 12 samples.

Results

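NF-kB subunits and the feedback inhibitors of the pathway were followed across macrophages inside and outside neuroblastoma spheres. The members were 10 genes chosen by name: the subunit genes Nfkb1, Nfkb2, Rel and Relb, the IkB family genes Nfkbia, Nfkbie, Nfkbiz and Bcl3, and the signalling inhibitors Tnfaip3 and Tnip1. A probe set annotated to that gene alone represented 9 of them, and Nfkb1 was not analysed here. All 9 passed the filter on dim probe sets, among 12488 tested genes of 17097 with such a probe set.

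The data came from 12 Affymetrix mouse arrays in 4 groups of 3: in-sphere macrophages at 24 h, outside macrophages at 24 h, in-sphere macrophages at 48 h and outside macrophages at 48 h. All groups were macrophages grown from the bone marrow of C57BL/6 mice and cultured together with spheres of TT9423, a mouse neuroblastoma line. In-sphere cells had entered the spheres, which were digested with enzymes before selection of CD11b-positive cells on magnetic columns. Outside cells were those of the same cultures that had stayed out, and the sources used here do not say whether they too were digested or selected. Each replicate was an independent experiment with macrophages pooled over several wells. The growth protocol attached to the 48 h samples describes a 24 h co-culture, and the times used here are those of the sample titles. The comparison asks how macrophages inside a tumour sphere differ from macrophages beside it.

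NF-kB is a family of transcription factor dimers that IkB proteins hold in the cytoplasm of resting macrophages. Signals through Toll-like, interleukin and TNF receptors activate the IkB kinase, IkB is degraded, and the released dimers induce cytokine and survival genes. Among the induced genes are those of IkB proteins and of the ubiquitin-binding proteins Tnfaip3 and Tnip1, which damp the signal again, and genes of NF-kB subunits themselves.

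The arrays had been normalised together by the authors, with medians of 3.03 to 3.17 (log2). Replicate 3 of the in-sphere 48 h group stood apart, with a mean of 4.06 against 4.20 to 4.22 on the other 11 arrays, so the members' differences at 48 h are also given without it. Macrophage markers were above the filter level on every array for all 11 genes with a probe set, among them Adgre1, Csf1r and Itgam, and their summed linear level was 18200 to 21800 in spheres and 18000 to 20800 outside at 24 h, and 19100 to 20800 in spheres and 19900 to 22000 outside at 48 h. Of these 11, 1 was higher and 4 were lower in spheres at 24 h, and 2 were higher and 5 lower at 48 h, with Cebpa lower by a log2 difference of -1.47 ± 0.19 at 24 h and -2.31 ± 0.19 at 48 h and Mertk of -0.91 ± 0.15 and -1.25 ± 0.15. Called or not, Cd14, Fcgr1 and Itgam had the higher mean in spheres at both times, and the other 8 the lower. The macrophage counts at 24 h became 1 and 2 without outside 24 h replicate 1 or in-sphere 24 h replicate 1, 2 and 3 without outside 24 h replicate 3, and 2 and 4 with the replicate number as a block, and the 2 higher at 48 h became 1 without outside 48 h replicate 1 or in-sphere 48 h replicate 2 or 3. The summed level of 18 neuroblastoma and neural markers was 452 to 852 in spheres and 155 to 169 outside at 24 h, and 703 to 812 in spheres and 136 to 140 outside at 48 h. Of the 12 tested ones, 3 were higher in spheres at 24 h and 4 at 48 h, led by Dlk1 and Gap43, and Stmn2, Th, Hand2 and Phox2a lay near the filter level in all groups. Summed fibroblast markers (12 genes) were 2180 to 4280 in spheres and 784 to 1130 outside at 24 h, and 3110 to 3190 in spheres and 778 to 1280 outside at 48 h, with 6 higher and 2 lower at 24 h and 7 higher and 3 lower at 48 h. The 2 lower became 1 without outside 24 h replicate 2, outside 48 h replicate 1 or 3, any in-sphere 24 h replicate, or in-sphere 48 h replicate 1 or 2. Granulocyte markers (10 genes) summed to 18600 to 25900 in spheres and 41700 to 49800 outside at 24 h, and to 12600 to 20100 in spheres and 34300 to 45900 outside at 48 h, with 0 higher and 7 lower at 24 h and 1 higher and 7 lower at 48 h. The number higher at 24 h became 3 without in-sphere 24 h replicate 1 and 2 without outside 24 h replicate 2, and with the replicate block it was 2 at either time. Called or not, the granulocyte markers Elane, Mpo and Prtn3 had the higher mean in spheres at both times, and the other 7 the lower. Dendritic cell markers summed to at most 74.5 and lymphocyte markers to at most 116 on any array. For the beta-actin controls, the excess of 3′ over 5′ signal (log2), which grows as RNA degrades, was 0.481 ± 0.127 in spheres and 0.285 ± 0.0535 outside at 24 h (SD, n = 3 each, exact two-sided permutation p = 0.10, the smallest this design allows) and 0.405 ± 0.0114 in spheres and 0.386 ± 0.0134 outside at 48 h (exact permutation p = 0.20). For the GAPDH controls it was 0.157 ± 0.275 in spheres and 0.0522 ± 0.108 outside at 24 h, where the groups overlapped (exact permutation p = 0.70), and 0.124 ± 0.0196 in spheres and 0.0794 ± 0.0235 outside at 48 h, where they did not (exact permutation p = 0.10). The part of these other cells and of RNA integrity in the member results was not tested.

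Promoter sequence is shown for 3 inhibitor genes, Tnfaip3 and Tnip1 as called members and Nfkbia as the classical feedback inhibitor, because such inhibitors are themselves induced through kappaB sites, the short motif that NF-kB dimers bind. Each window runs from 250 bases before to 50 bases after a RefSeq transcript start (GRCm38.p6), is written 5′ to 3′ on the strand of the gene, and carries the matches to the kappaB consensus on either strand in capitals. Tnfaip3 is at chr10:19015361-19015660 (minus strand), Tnip1 at chr11:54962891-54963190 (minus strand) and Nfkbia at chr12:55492598-55492897 (minus strand).
Tnfaip3: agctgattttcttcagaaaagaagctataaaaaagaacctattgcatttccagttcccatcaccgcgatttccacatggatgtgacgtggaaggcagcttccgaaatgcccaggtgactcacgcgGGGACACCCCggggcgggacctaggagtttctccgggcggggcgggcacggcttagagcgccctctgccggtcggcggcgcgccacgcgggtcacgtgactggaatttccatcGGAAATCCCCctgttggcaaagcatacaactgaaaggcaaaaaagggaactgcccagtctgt
Tnip1: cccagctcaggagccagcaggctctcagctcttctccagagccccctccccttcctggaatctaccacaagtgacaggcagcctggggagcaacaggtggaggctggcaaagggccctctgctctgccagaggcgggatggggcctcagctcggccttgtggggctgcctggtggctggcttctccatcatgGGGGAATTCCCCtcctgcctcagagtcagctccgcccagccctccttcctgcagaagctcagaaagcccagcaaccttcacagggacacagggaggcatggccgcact
Nfkbia: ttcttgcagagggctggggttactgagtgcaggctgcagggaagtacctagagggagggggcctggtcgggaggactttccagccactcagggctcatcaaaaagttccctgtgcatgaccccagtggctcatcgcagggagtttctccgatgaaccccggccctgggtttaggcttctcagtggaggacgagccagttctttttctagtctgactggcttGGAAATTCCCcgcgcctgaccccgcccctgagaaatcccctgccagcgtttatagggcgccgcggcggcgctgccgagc

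In the Tnfaip3 window the 2 matches lay 125 and 12 bases upstream of the start. The Nfkbia match began 29 bases upstream. Matches in the Tnip1 window overlapped one another, with first bases 58, 57 and 56 bases upstream, and the middle one is a palindrome that reads alike on both strands. Each of the 7 members with a window in the table (Bcl3, Nfkb2, Nfkbia, Nfkbie, Rel, Tnfaip3 and Tnip1) held a match, in 9 of their 10 windows. The window without a match belongs to a second Tnfaip3 start. The Nfkb2 windows that start at chr19:46305445 and chr19:46305680 overlap and share a matched site, which is counted in each. Across all genes with a window, 1388 of 27025 (5.14%) held a match in any window, and 1480 of 32851 windows (4.51%) did. A match is a stretch of letters and no measure of binding, and Relb, Nfkbiz and Nfkb1 had no window in the table.

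Inside the spheres, the ubiquitin-editing inhibitor Tnfaip3 was higher than outside at 48 h, and the Tnfaip3 partner Tnip1 was higher at 24 h. The nuclear IkB protein gene Nfkbiz was higher at 48 h by 2 of its 3 probe sets and lower by the third (-1.72 ± 0.19). At 24 h, Tnip1 was the member that passed the test, at 1.54-fold (95% confidence interval 1.17 to 2.02), so 1 of 9 members was called higher and 0 lower, beside 15.8% of all genes called higher and 13.6% called lower (29.4% in all). At 48 h, Tnfaip3 at 1.85-fold (1.55 to 2.19) and Nfkbiz at 1.40-fold (1.19 to 1.64) passed, so 2 of 9 members were called higher and 0 lower, beside 15.2% of all genes called higher and 22.3% lower (37.5% in all). In both directions together, the share of members called lay below the share of all genes at each time, while at 48 h the share called higher lay above it (22.2% beside 15.2%). With 9 members these shares rest on 1 and 2 calls, and their difference from all genes was not tested. They also depend on the probe set used for Nfkbiz. With the mean of each gene's probe sets, 2 members were called at 24 h (Tnip1 higher and Nfkbiz lower) and 1 at 48 h (Tnfaip3 higher). The members' median log2 difference was 0.28 at 24 h and 0.29 at 48 h, against -0.01 and -0.10 for all genes tested. At an unadjusted p under 0.05 there were 3 members at 24 h and 4 at 48 h, beside 39.4% and 46.0% of all genes. Without overlap between the groups' arrays, 3 members were higher and 1 lower at 24 h (22.0% and 21.5% of all genes, 43.4% together), and 5 were higher and 1 lower at 48 h (20.7% and 31.0% of all genes, 51.6% together). Tests were limma's, with Benjamini-Hochberg adjustment over the 12488 genes and a call at an adjusted p under 0.05. Without replicate 3 of the in-sphere 48 h group, the 48 h difference was 0.86 for Tnfaip3 and 0.46 for Nfkbiz, which kept their calls (limma adjusted p = 0.000368 and 0.00868). The uncalled differences were then 0.24 for Nfkb2, 0.49 for Rel, -0.18 for Relb, 0.29 for Nfkbia, 0.32 for Nfkbie, -0.38 for Tnip1 and -0.30 for Bcl3, all still uncalled (limma adjusted p = 0.116 to 0.673). Centring each array on its median moved the median difference of all genes at 48 h to 0.02 and the split of calls from 1904 higher and 2781 lower to 2286 higher and 2163 lower.

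**Figure D1:**
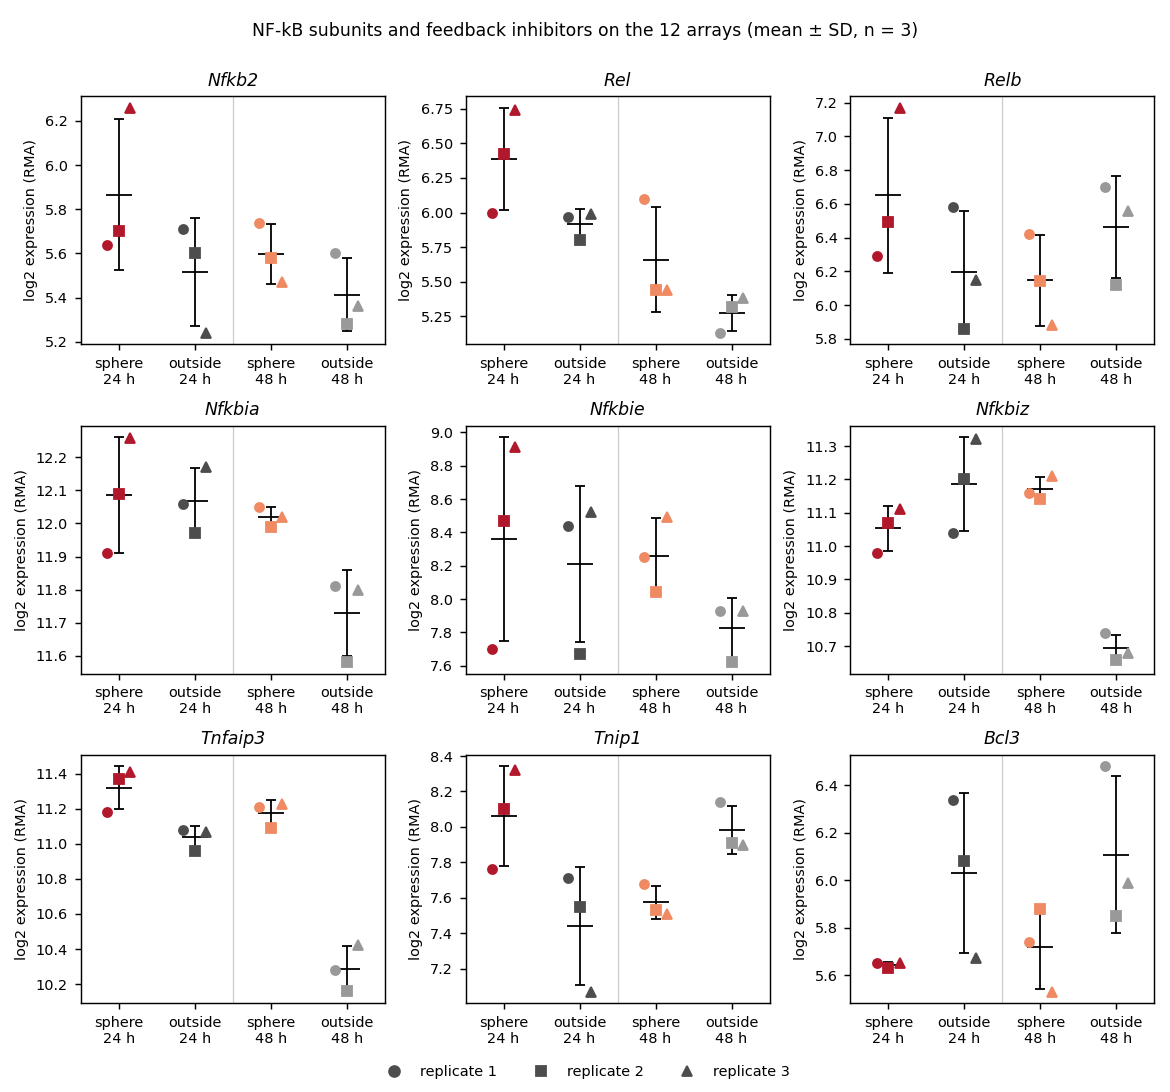
Log2 expression of the 9 measured members on each array. Each panel is a gene, each point an array (marker shape gives the replicate number), and bars are mean ± SD of 3 arrays. For Tnfaip3, Nfkbiz, Nfkbia and Rel the 3 outside arrays at 48 h are the lowest.

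**Figure D2:**
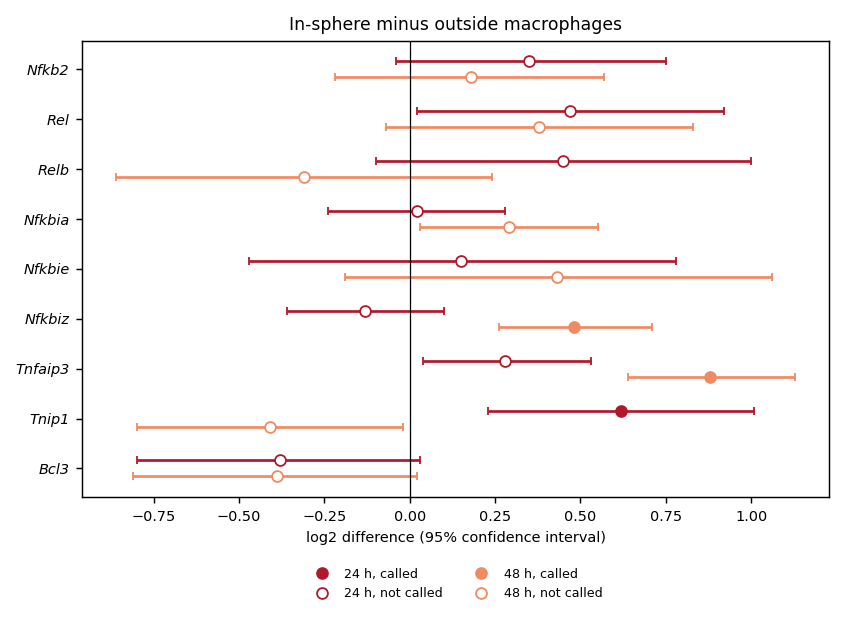
Log2 difference of in-sphere minus outside macrophages for each member at 24 h and 48 h, with its 95% confidence interval. Filled points passed the test: Tnip1 at 24 h, and Nfkbiz and Tnfaip3 at 48 h.

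Among the subunits, none passed in either comparison. Rel encodes c-Rel, a subunit with a transactivation domain that is prominent in immune cells. Its log2 values were 6.00, 6.42 and 6.74 in spheres and 5.97, 5.80 and 5.99 outside at 24 h. At 48 h they were 6.10, 5.44 and 5.44 in spheres and 5.13, 5.32 and 5.38 outside. Every in-sphere array was thus above every outside array of its time, by a small margin at either time, and the difference of 0.47 ± 0.21 (SE) at 24 h and of 0.38 ± 0.21 at 48 h missed the threshold (limma adjusted p = 0.113 and 0.169). By group mean, Rel was highest in spheres at 24 h, followed by outside at 24 h, in spheres at 48 h and outside at 48 h, and none of the tested neighbours in this order passed the threshold, although the 24 h interval of 0.02 to 0.92 excludes 0. Without in-sphere replicate 1 the 24 h difference was 0.66 and passed (limma adjusted p = 0.0348), and with array weights it was 0.50 and passed (0.0301).

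Relb encodes RelB, which with the product of Nfkb2 forms the main dimer of the non-canonical pathway. Relb had 6.29, 6.49 and 7.17 in spheres and 6.58, 5.86 and 6.15 outside at 24 h, and 6.42, 6.14 and 5.88 in spheres and 6.70, 6.12 and 6.56 outside at 48 h. Arrays of the groups overlapped at both times, and the difference was 0.45 ± 0.25 at 24 h and -0.31 ± 0.25 at 48 h (limma adjusted p = 0.212 and 0.365). Nfkb2 values ran from 5.64 to 6.26 in spheres and from 5.24 to 5.71 outside at 24 h, and from 5.47 to 5.74 in spheres and from 5.28 to 5.60 outside at 48 h. They also overlapped, with differences of 0.35 ± 0.18 and 0.18 ± 0.18 (limma adjusted p = 0.175 and 0.473). At 24 h replicate 3 in spheres was the highest array for all 3 measured subunits.

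Nfkbia encodes IkB-alpha, the inhibitor that is degraded and resynthesised within each cycle of activation. Nfkbia had 11.91, 12.09 and 12.26 in spheres and 12.06, 11.97 and 12.17 outside at 24 h. In spheres at 48 h it had 12.05, 11.99 and 12.02, against 11.81, 11.58 and 11.80 outside. The groups were interleaved at 24 h and separate at 48 h, where the outside arrays were the 3 lowest of the 12. The difference at 24 h was 0.02 ± 0.12, with an interval of -0.24 to 0.28, and at 48 h it was 0.29 ± 0.12, or 1.23-fold (1.02 to 1.47). Neither passed the threshold (limma adjusted p = 0.924 and 0.0729). The 48 h difference passed without in-sphere 24 h replicate 1 (limma adjusted p = 0.049), with a trended robust prior (0.0179) and with array weights (0.0295). Nfkbie, which encodes the related IkB-epsilon, ran from 7.70 to 8.91 in spheres and from 7.67 to 8.52 outside at 24 h, and from 8.04 to 8.49 in spheres and from 7.62 to 7.93 outside at 48 h. Its arrays overlapped at 24 h and not at 48 h, and neither difference passed (0.15 ± 0.29 and 0.43 ± 0.29; limma adjusted p = 0.754 and 0.265). A second Nfkbie probe set gave -0.03 ± 0.30 at 24 h and 0.52 ± 0.30 at 48 h (limma adjusted p = 0.961 and 0.205 over 20235 probe sets).

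Nfkbiz encodes IkB-zeta, a nuclear IkB protein that acts as a coactivator for secondary response genes such as Il6. Nfkbiz had 10.98, 11.07 and 11.11 in spheres and 11.04, 11.20 and 11.32 outside at 24 h. In spheres at 48 h it had 11.16, 11.14 and 11.21, against 10.74, 10.66 and 10.68 outside. The outside arrays at 48 h lay below all the others and spread little within their group (SD 0.0414, n = 3), as did the in-sphere arrays of that time (SD 0.0359, n = 3). The difference was -0.13 ± 0.11 at 24 h (limma adjusted p = 0.407) and 0.48 ± 0.11 at 48 h (limma adjusted p = 0.00328). In bulk RNA, fewer cells with a transcript and less of it per cell cannot be told apart, for this gene and for all that follow.

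The 3 probe sets annotated to Nfkbiz disagreed. The first, which has the highest mean and gave the values above, and the second were higher in spheres at 48 h, the second by 0.88 ± 0.19 or 1.84-fold (limma adjusted p = 0.00384 over 20235 probe sets, of which 34.1% were called at 48 h). That second probe set had 10.55, 10.57 and 10.56 in spheres and 9.65, 9.66 and 9.72 outside at 48 h. The third went the other way at both times. It had 7.79, 8.31 and 8.26 in spheres against 10.05, 10.24 and 10.64 outside at 24 h. At 48 h it had 8.47, 8.95 and 8.78 in spheres against 10.36, 10.47 and 10.54 outside. Its arrays did not overlap at either time, and it was lower in spheres, with a log2 difference of -2.19 ± 0.19 (0.219-fold) at 24 h and -1.72 ± 0.19 (0.303-fold) at 48 h (limma adjusted p = 9.31e-06 and 2.79e-05, beside 25.6% of probe sets called at 24 h). Averaging the 3 probe sets turned the sign of the gene's 48 h difference to -0.12 (limma adjusted p = 0.474), and at 24 h it gave -0.69, which passed the test as lower in spheres (limma adjusted p = 0.00116). Which transcripts each probe set reads was not tested, so the direction given for Nfkbiz is that of 2 of its 3 probe sets. Those 2 are annotated to the same sequence record and the third to another, so their agreement does not come from separate source sequences.

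**Figure D3:**
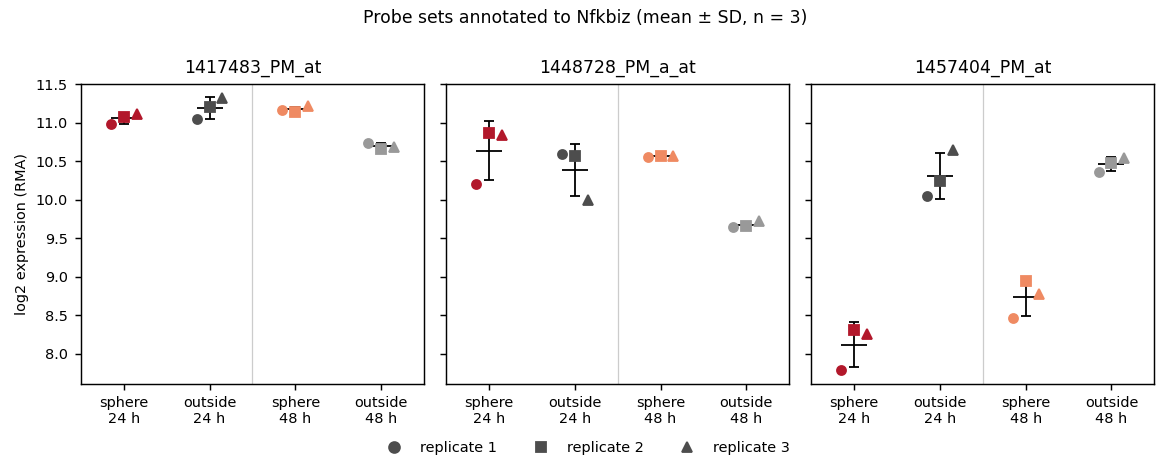
Log2 expression of the 3 probe sets annotated to Nfkbiz, in the order used in the text from left to right. Points are arrays and bars mean ± SD of 3. The third panel is the one where outside arrays lie above in-sphere arrays at both times.

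Bcl3 encodes another nuclear IkB protein, which binds homodimers of the p50 and p52 subunits. Values ran from 5.63 to 5.65 in spheres and from 5.67 to 6.34 outside at 24 h, and from 5.53 to 5.88 in spheres and from 5.85 to 6.48 outside at 48 h. In-sphere arrays lay below all outside arrays at 24 h, narrowly, and overlapped them at 48 h. With differences of -0.38 ± 0.19 and -0.39 ± 0.19 it was the member with a negative estimate of like size at both times, and neither passed (limma adjusted p = 0.158 and 0.128), though without outside replicate 3 the 24 h difference was -0.56 and did (limma adjusted p = 0.0483). With array weights the 24 h difference was -0.47 and passed as well (limma adjusted p = 0.0393).

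Tnfaip3, also known for loss-of-function mutations in lymphoma and inflammatory disease in humans, removes and adds ubiquitin chains on signalling proteins upstream of the IkB kinase. It had 11.18, 11.37 and 11.41 in spheres and 11.08, 10.96 and 11.07 outside at 24 h. In spheres at 48 h it had 11.21, 11.09 and 11.23, against 10.28, 10.16 and 10.42 outside. Outside arrays at 48 h formed a low group of their own, and all 9 other arrays lay between 10.96 and 11.41. The in-sphere difference was 0.28 ± 0.11 at 24 h, without overlap but with an adjusted p above the threshold (limma adjusted p = 0.0819), and 0.88 ± 0.11 at 48 h (limma adjusted p = 8.83e-05). The 24 h difference passed without in-sphere replicate 1 (limma adjusted p = 0.0467), with a trended robust prior (0.0235) and with array weights (0.0199). Tnfaip3 remained called at 48 h in all 21 alternative analyses, with differences of 0.80 to 1.00. A second Tnfaip3 probe set gave 0.87 ± 0.21 or 1.82-fold at 48 h (limma adjusted p = 0.00716 over 20235 probe sets) and -0.11 ± 0.21 at 24 h (limma adjusted p = 0.753). By group mean the order was in spheres at 24 h (11.32 ± 0.128), in spheres at 48 h (11.17 ± 0.0761), outside at 24 h (11.04 ± 0.07) and outside at 48 h (10.29 ± 0.132; SD, n = 3 each), and of the neighbours in this order, the first 2 did not pass the test, the last 2 did, and the middle 2 were not compared.

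Tnip1 encodes a ubiquitin-binding partner of the Tnfaip3 protein. It had 7.76, 8.10 and 8.32 in spheres and 7.71, 7.55 and 7.07 outside at 24 h. At 48 h it had 7.68, 7.53 and 7.51 in spheres and 8.14, 7.91 and 7.90 outside. In-sphere arrays were thus the higher ones at 24 h and the lower ones at 48 h, without overlap at either time. The difference was 0.62 ± 0.18 at 24 h (limma adjusted p = 0.021) and -0.41 ± 0.18 at 48 h (limma adjusted p = 0.0921). The 24 h call was lost without in-sphere replicate 2 or 3 (limma adjusted p = 0.0605 and 0.0793), without outside replicate 3 (0.0895), and with only the 2 groups compared in the fit (0.0621). The lower 48 h difference passed with array weights (limma adjusted p = 0.0342) and with only the 2 groups compared in the fit (0.0323).

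Time was compared within each compartment. Outside the spheres, Tnfaip3 fell to 10.29 at 48 h, against 11.04 at 24 h, a log2 difference of -0.75 ± 0.11 or 0.595-fold (0.501 to 0.706; limma adjusted p = 0.0203). That was 1 of 9 members called, beside 42 of 12488 genes (0.336%; 0.224% called lower). Nfkbiz had a difference of -0.50 ± 0.11, Rel of -0.64 ± 0.21, Nfkbia of -0.34 ± 0.12 and Tnip1 of 0.54 ± 0.18, none of which passed (limma adjusted p = 0.0741, 0.239, 0.292 and 0.252). With Tnfaip3, Nfkbiz, Rel and Nfkbia were the 4 members whose 48 h arrays all lay below their 24 h arrays (8.66% of all genes), and Tnip1 was the 1 member whose 48 h arrays all lay above (13.4%; 22.1% in both directions). These 5 were also the members at an unadjusted p under 0.05, beside 10.8% of all genes. The Tnfaip3 call was lost without any 1 of the 6 outside arrays (limma adjusted p = 0.0559 to 0.0833) and with only the 2 groups compared in the fit (0.0609), and with the replicate number as a block 158 genes were called in place of 42, Tnfaip3 among them (0.0153). The second Tnfaip3 probe set gave -0.80 ± 0.21 (limma adjusted p = 0.161, beside 0.257% of 20235 probe sets called). For Nfkbiz, the second probe set gave -0.70 ± 0.19 (limma adjusted p = 0.178). The third gave 0.15 ± 0.19 (limma adjusted p = 0.865) with overlapping arrays, so it did not show the lower 48 h values.

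Inside the spheres, 0 members and 0 of 12488 genes were called between 48 h and 24 h. Tnfaip3 differed by -0.15 ± 0.11, Nfkbiz by 0.12 ± 0.11 and Nfkbia by -0.07 ± 0.12, with intervals of -0.40 to 0.10, -0.11 to 0.35 and -0.33 to 0.19. At an unadjusted limma p under 0.05 there were 2 members, Rel (-0.73 ± 0.21, adjusted p = 0.251) and Tnip1 (-0.49 ± 0.18, adjusted p = 0.377), beside 1341 genes (10.7%). The 48 h arrays of Nfkbiz all lay above its 24 h arrays and those of Tnip1 all lay below, beside 4.46% of all genes above and 9.30% below (13.8% together). For Nfkbiz that holds for the probe set used. The second gave -0.08 ± 0.19 with overlapping arrays, and the third 0.62 ± 0.19 without overlap (limma adjusted p = 0.92 and 0.30). With the replicate number as a block 15 genes were called, 0 of them members. Rel was therefore the member with a negative estimate of similar size in both compartments, -0.73 in spheres and -0.64 outside, neither of which passed in the reported fit. With array weights the Rel difference over time in spheres was -0.82 and passed (limma adjusted p = 0.0388).

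Whether the in-sphere difference itself changed between the times was tested as an interaction, and 0 members and 0 of 12488 genes passed (1534 genes, 12.3%, at an unadjusted limma p under 0.05, and 65 genes but 0 members passed with the replicate block). Members past the unadjusted level were Nfkbiz (0.61 ± 0.15, adjusted p = 0.163), Tnfaip3 (0.60 ± 0.16, adjusted p = 0.178) and Tnip1 (-1.03 ± 0.25, adjusted p = 0.166). The calls of Tnfaip3 and Nfkbiz at 48 h and of Tnip1 at 24 h are thus not shown to be particular to those times.

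**Figure D4:**
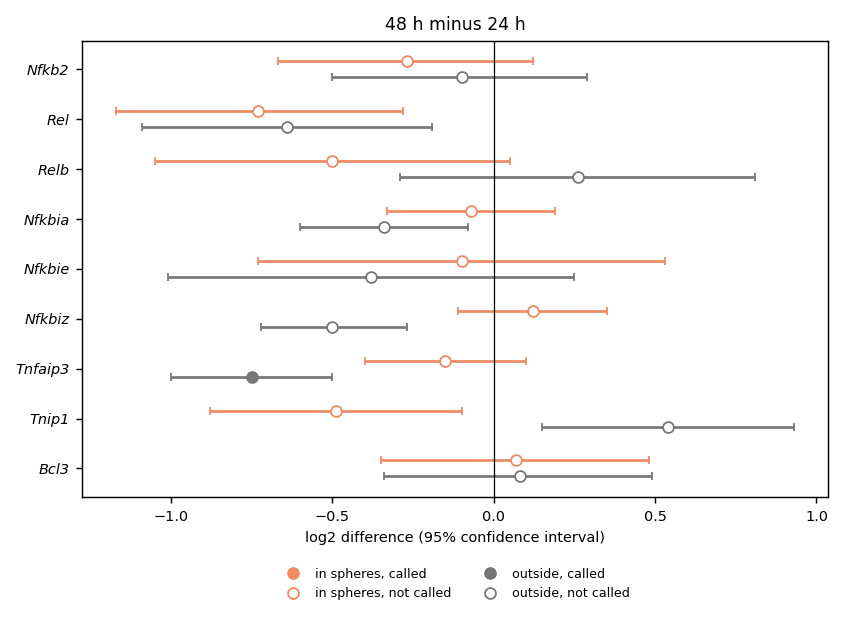
Log2 difference of 48 h minus 24 h for each member, in spheres and outside, with its 95% confidence interval. The filled point is Tnfaip3 outside the spheres (-0.75), the call made over time.

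The other genes of the pathway were counted by role from lists chosen by name. Of 20 tested receptors that signal to NF-kB, 5 were higher and 8 lower in spheres at 24 h, and 5 higher and 10 lower at 48 h, with median log2 differences of -0.31 and -0.50. Clec7a, the beta-glucan receptor Dectin-1, fell in spheres by 2.14 at 24 h and by 2.27 at 48 h on the log2 scale (SE 0.12 each; limma adjusted p = 1.01e-06 and 3.02e-07). Nod1, an intracellular sensor of bacterial peptidoglycan, was lower, with a log2 difference of -1.31 ± 0.22 at 24 h and -1.54 ± 0.22 at 48 h, and so was the TNF receptor gene Tnfrsf1b with -1.11 ± 0.18 at 48 h (limma adjusted p = 0.000956, 0.000214 and 0.000473). Cd40, a costimulatory receptor, was higher by 1.59 ± 0.27 and 1.16 ± 0.27, and the interleukin-1 receptor gene Il1r1 by 1.18 ± 0.20 at 24 h (limma adjusted p = 0.000984, 0.00519 and 0.000877). Both signs were present among the receptors, and the list's calls were 65.0% and 75.0% of its tested genes, beside 29.4% and 37.5% of all genes.

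Among 29 tested kinases and adaptors upstream, 1 was higher and 5 were lower at 24 h, and 1 was higher and 11 were lower at 48 h, with medians of -0.13 and -0.34. The calls were 20.7% and 41.4% of the list, beside 29.4% and 37.5% of all genes. Ikbkg, the regulatory subunit of the IkB kinase, was lower in spheres, with a log2 difference of -0.70 ± 0.17 at 24 h and -1.31 ± 0.17 at 48 h (limma adjusted p = 0.00911 and 0.000115). Myd88, the adaptor of most Toll-like receptors, was lower, with a log2 difference of -0.67 ± 0.12 and -0.82 ± 0.12 (limma adjusted p = 0.00165 and 0.000297). Malt1, a protease of the CARD adaptor complex downstream of Clec7a, was the gene that was higher, by 0.90 ± 0.24 and 1.16 ± 0.24 (limma adjusted p = 0.0122 and 0.0023). The 11 lower calls at 48 h became 6, 5 and 6 without outside 48 h replicate 1, 2 or 3, 5 without in-sphere 48 h replicate 3, and 6 with arrays centred on their medians.

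Other subunits and inhibitors (15 tested) divided into 2 higher and 4 lower at 24 h and 2 higher and 3 lower at 48 h, with medians of 0.01 and -0.02. The 6 calls at 24 h and 5 (33.3%) at 48 h stand beside 29.4% and 37.5% of all genes. Otulin, a deubiquitinase of linear chains, was lower in spheres, with a log2 difference of -0.73 ± 0.13 and -0.68 ± 0.13 (limma adjusted p = 0.0013 and 0.00152). Pdlim2, a ubiquitin ligase that targets nuclear RelA, was higher by 0.73 ± 0.17 and 0.90 ± 0.17 (limma adjusted p = 0.0061 and 0.0012). The 24 h counts moved to 1 higher and 2 lower without outside replicate 2, to 3 and 2 without in-sphere replicate 1, and to 1 and 3 without in-sphere replicate 2 or 3.

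Both lists of NF-kB targets had positive medians. Of 26 tested secreted and surface targets, 7 were higher and 2 lower at 24 h, and 12 higher and 1 lower at 48 h, with medians of 0.37 and 0.63, or 34.6% and 50.0% of the list called beside the same 29.4% and 37.5%. The monocyte chemokine genes Ccl2 and Ccl7 were higher by 1.46 ± 0.16 and 1.78 ± 0.25 at 24 h and by 2.26 ± 0.16 and 2.64 ± 0.25 at 48 h (limma adjusted p = 4.64e-05, 0.000274, 1.67e-06 and 1.09e-05). Cxcl10, a chemokine gene also induced by interferons, was higher by 2.69 ± 0.28 at 48 h (limma adjusted p = 2.15e-05), and Lcn2, an iron-carrier binding protein that granulocytes also store, was lower, with a log2 difference of -1.80 ± 0.22 (limma adjusted p = 5.97e-05). Without outside 24 h replicate 1, 2 or 3, in-sphere 24 h replicate 1 or 2, or outside 48 h replicate 2, the 2 lower calls at 24 h became 1. Of 22 intracellular targets, 6 were higher and 3 lower at 24 h, and 8 higher and 4 lower at 48 h, with medians of 0.19 and 0.36, or 40.9% and 54.5% called. Socs3, an inhibitor of cytokine receptor signalling, was higher by 1.67 ± 0.15 and 1.82 ± 0.15, and the prostaglandin synthase gene Ptgs2 by 0.65 ± 0.15 and 1.33 ± 0.15 (limma adjusted p = 1.07e-05, 3.89e-06, 0.00678 and 4.06e-05). The 3 lower intracellular calls at 24 h became 1 without outside replicate 1 and 0 without outside replicate 3 or in-sphere replicate 1. The 4 at 48 h became 1 or 2 without outside 24 h replicate 2 or 3, outside 48 h replicate 1 or 3, in-sphere 24 h replicate 2 or any in-sphere 48 h replicate, and 1 with arrays centred.

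**Figure D5:**
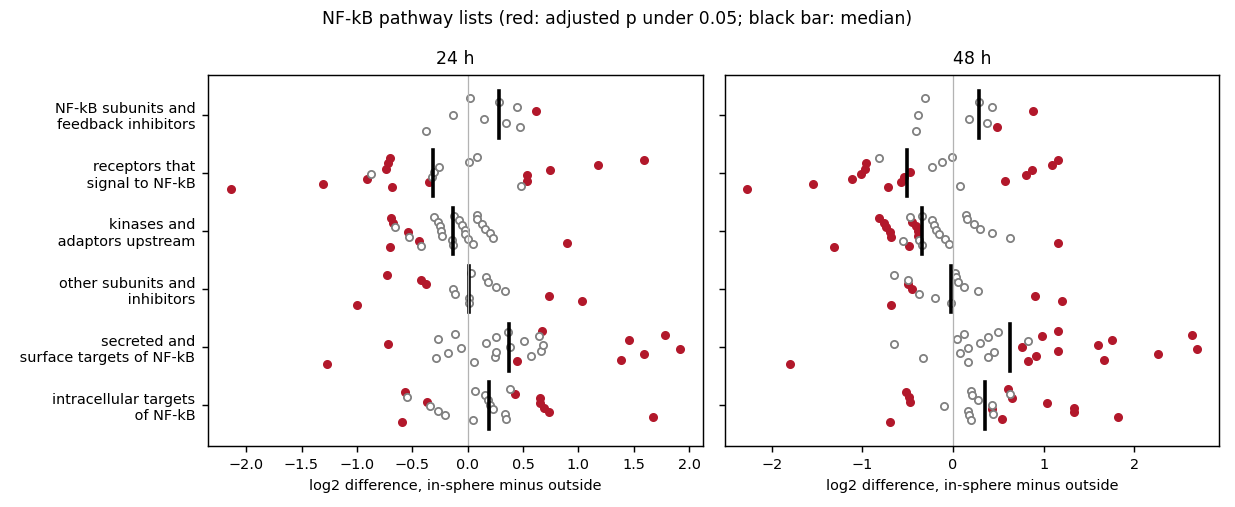
Log2 difference of in-sphere minus outside macrophages at 24 h and 48 h for the members and the 5 pathway lists. Points are genes, red where the adjusted p was under 0.05, and black bars are medians, which lie below 0 for receptors and kinases and above 0 for both target lists at both times.

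The inflammatory cytokine genes Tnf, Il1b and Il6 were chosen for naming after their values were seen. Tnf differed by -0.29 ± 0.14 at 24 h and 0.04 ± 0.14 at 48 h (limma adjusted p = 0.154 and 0.852). Il1b differed by 0.06 ± 0.20 at 24 h and was higher by 0.83 ± 0.20 at 48 h (limma adjusted p = 0.87 and 0.00676). Il6 differed by -0.06 ± 0.37 at 24 h and was higher by 1.75 ± 0.37 at 48 h (limma adjusted p = 0.934 and 0.00296). Over time outside the spheres, the called target genes were Il6, Cxcl10 and Ehd1, an endocytic recycling gene, all lower at 48 h. Il6 averaged 4.02 at 48 h and 6.86 at 24 h, a difference of -2.84 ± 0.37, and Cxcl10 6.48 at 48 h and 8.63 at 24 h, a difference of -2.15 ± 0.28 (limma adjusted p = 0.0169 each). Both calls were lost without outside 24 h replicate 3 (0.0568 each) or outside 48 h replicate 1 (0.0793 and 0.0819). Ehd1 averaged 8.20 at 48 h and 8.83 at 24 h, a difference of -0.62 ± 0.11 (limma adjusted p = 0.039), and its call was lost without any 1 of the 6 outside arrays (0.0683 to 0.171), without replicate 1 or 2 of either in-sphere group (0.0512 to 0.0718) and with centred arrays (0.083). The replicate block gave 5 lower secreted targets in place of 2.

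Enzymatic digestion can itself change immediate-early and heat-shock genes, so these were counted beside the members. Of 15 tested, 3 were higher and 7 lower in spheres at 24 h, and 4 higher and 1 lower at 48 h. Jun was lower, with a log2 difference of -1.52 ± 0.22 at 24 h, and the heat-shock gene Hspa1b was higher by 1.36 ± 0.15 at 24 h and 2.17 ± 0.15 at 48 h (limma adjusted p = 0.000338, 4.25e-05 and 1.38e-06). The 48 h counts ranged from 1 to 4 higher and from 0 to 2 lower over the arrays left out, with 1 and 1 without outside 48 h replicate 1, 2 and 0 without outside 48 h replicate 3 or in-sphere 48 h replicate 1, 2 and 1 without in-sphere 48 h replicate 3, and 4 and 2 without in-sphere 24 h replicate 1. Arrays centred on their medians gave 4 and 0. Their part in the member results was not tested.

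Likeness of pattern was measured as the root mean square difference between log2 values over the 12 arrays, each gene centred on its own mean, against 12487 other tested genes. Tnfaip3 was nearest to Ehd1 (0.137) and Tspo (0.157), and its own values deviated from their mean by 0.407. Nfkbiz was nearest to Ppp1r1c (0.112) and Actl6a (0.114), with Nfkbia next among the members at 0.12 (5th of all genes). Nfkbia was nearest to Khdrbs1 (0.0981) and Ccrl2 (0.104). Nfkbie was nearest to Birc3 (0.195), an inhibitor of apoptosis gene on both the adaptor and the target list, and Csrnp1 (0.208). Rel was nearest to Apobec3 (0.185) and Pla1a (0.188), Relb to St3gal1 (0.135) and Lmf1 (0.161), and Tnip1 to Zfp653 (0.133) and Gid4 (0.14). Nfkb2 was nearest to Parvb (0.132) and Zdhhc21 (0.133), and Bcl3 to Aldh9a1 and Spata2l (0.13 each). From each member, the nearest other member ranked between 5 (Nfkbia from Nfkbiz) and 7552 (Nfkbia from Bcl3) among all genes.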

How the data were processed

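Gene expression in the 4 groups of 3 arrays was analysed from the deposited log2 values per probe set, which the authors made by RMA, per the submitters' processing notes, which name Affymetrix Expression Console 1.1. RMA quantile-normalises arrays together, so that a difference in total RNA per cell is lost. Differences between dim signals are also shrunk in such values. The table held 45141 probe sets. Platform annotation gave 1 symbol to 28898 and several to 551, and 15692 were unnamed; 28689 were checked through RefSeq gene identifiers with 0 symbols changed. For each gene the single-gene probe set with the highest mean was used, and it was tested if above 2.775, the 40th percentile, on at least 3 arrays.

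A group-means model over all 12 arrays was fitted in limma 3.58.1 (R 4.3.3), with 8 residual and 4.09 prior degrees of freedom, Benjamini-Hochberg adjustment over 12488 genes and a call at an adjusted p under 0.05. Errors of differences are its standard errors. The script was checked on simulated data. Precision is limited by the number of arrays. No pair of arrays was alike enough to be the same hybridisation (smallest median absolute log2 difference 0.132).

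Groups and replicate numbers came from the titles. The design text makes each replicate an independent experiment, with both compartments from the same cultures, so the numbers were taken as pairing the arrays. The reported fit did not use this pairing, and the replicate block among the alternatives did. Deviations from group means correlated, for the 3 numbers, at 0.0215, 0.120 and 0.0813 between in-sphere and outside arrays at 24 h, at 0.117, 0.0417 and 0.112 at 48 h, at 0.116, 0.140 and 0.0247 between times in spheres and at 0.471, 0.473 and 0.419 outside. Alternatives were the filter, the mean of probe sets or each on its own, eBayes settings, array weights, centring, fits of 2 groups, the replicate block and each array left out.

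The members, lists and tests were chosen with earlier results of these data known. Genes named are all members, up to 4 called genes per list and time, 2 like genes per member, and those said to be chosen otherwise. Some cell type markers are named for their level or sign.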

Additional observations from a re-analysis of the deposited data

Results flagged for a closer look

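The in-sphere difference of Nfkbiz changed by 0.61 on the log2 scale between 24 h and 48 h. It was singled out because the 3 same-numbered pairs of arrays all gave a negative difference at 24 h (-0.05, -0.13 and -0.21) and a positive one at 48 h (0.43, 0.49 and 0.54), and the limma interaction test did not pass (adjusted p = 0.163). That switch is seen in the probe set used for the gene. The second Nfkbiz probe set gave 0.26 at 24 h and 0.88 at 48 h, and the third -2.19 at 24 h and -1.72 at 48 h, so neither changed sign between the times. For Tnip1 the change was -1.03. Its pairs differed by 0.04, 0.56 and 1.26 at 24 h and by -0.47, -0.38 and -0.39 at 48 h, and the interaction test did not pass either (adjusted p = 0.166).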

How the results depend on the processing

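With 3 arrays a group, precision is limited by their number, and calls near the threshold depended on single arrays. Tnfaip3 at 48 h was called in all 21 alternatives, Nfkbiz at 48 h in 20, Tnip1 at 24 h in 17 and Tnfaip3 over time outside in 14. Leaving out an array of a group not compared could not change the difference itself, nor could the probe set settings for Tnip1, which has a single probe set. For Nfkbiz, each probe set on its own counted the one used. Among the compared arrays, the Tnip1 call was lost without in-sphere replicate 2 or 3 or outside replicate 3. The Tnfaip3 call over time was lost without any outside array. In the paired analysis with the replicate block no member call changed, and Tnip1 at 24 h had a limma adjusted p of 0.0297, Nfkbiz and Tnfaip3 at 48 h 0.00506 and 0.000151, and Tnfaip3 over time outside 0.0153. The cause of the changes below was not tested.

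Members called at 24 h numbered 2 with the mean of probe sets (Tnip1 higher and Nfkbiz lower), 2 with a trended robust prior, 4 with array weights and 0 with only the 2 groups fitted (1 as reported). At 48 h there were 1 with the mean of probe sets and 4 with array weights (2 as reported), the latter with Nfkbia as higher and Tnip1 as lower. Nfkbia at 48 h also passed with the trended robust prior, and Tnip1 with only the 2 groups fitted. Between times, array weights called 1 member in spheres, which was Rel. Outside, the trended prior and array weights called 2 each (Tnfaip3 and Nfkbiz, both lower at 48 h) and the fit of 2 groups 0 (1 as reported). For the interaction, array weights called 1, which was Tnip1 (-0.98, limma adjusted p = 0.0421). Of all genes, 0 were called over time in spheres, against 4 with no filter, 4 with a stricter filter, 9 with the mean of probe sets, 11 with the trended prior, 115 with array weights, 12 with centred arrays and 15 with the replicate block. Outside, 42 became 89 with the trended prior, 286 with array weights, 120 with centred arrays, 1 with 2 groups and 158 with the replicate block. The interaction gave 1 with the mean of probe sets, 7 with the trended prior, 130 with array weights, 70 with centred arrays and 65 with the replicate block.

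Leaving out each array in turn gave 0 to 3 members called at 24 h, 2 to 3 at 48 h, 0 to 0 over time in spheres, 0 to 1 outside and 0 to 0 for the interaction, and 2930 to 4176, 3811 to 4918, 0 to 10, 0 to 68 and 0 to 2 of all genes.

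Signs of uncalled estimates turned with centred arrays for Nfkbia at 24 h (-0.04), for Nfkbia, Nfkbie and Tnfaip3 over time in spheres (0.08, 0.05 and 0.00) and for Nfkb2, Rel and Bcl3 in the interaction (0.00, 0.09 and 0.17), with array weights for Bcl3 over time outside (-0.05) and Nfkb2 and Bcl3 in the interaction (0.01 and 0.23), and with the mean of probe sets for Tnfaip3 over time in spheres (0.01) and for the called Nfkbiz at 48 h (-0.12). Over the arrays left out, Nfkbia ran from -0.07 to 0.11 and Nfkbie from -0.12 to 0.48 at 24 h. Over time in spheres, Nfkbia ran from -0.15 to 0.02, Nfkbie from -0.43 to 0.18 and Bcl3 from -0.01 to 0.16, and outside Bcl3 from -0.11 to 0.23. For the interaction, Nfkb2 ran from -0.29 to 0.03, Rel from -0.31 to 0.09, Nfkbie from -0.05 to 0.56 and Bcl3 from -0.17 to 0.18.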
